A study of Homo sapiens with 4 samples.

Results

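The transcripts examined were those of 39 genes that hold epithelial cells together or regulate that state, out of 18882 gene IDs with a read in at least 1 library. They were listed by symbol, with earlier results of these data known, and fall into 7 classes. The classes are 3 classical cadherins, 4 nectin and EPCAM genes, 11 tight junction genes, 7 desmosome genes, 3 polarity genes, 6 epithelial regulators and 5 EMT transcription factors. All 39 had a read in at least 1 library, and 36 had enough reads to be tested. ZEB2, SNAI1 and SNAI2 did not.

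BT-474 is a long-established human cell line from a breast cancer, labelled as luminal B-like. RNA was sequenced from 2 libraries of control BT-474 cells, labelled wild-type, and from 2 libraries of BT-474 NRP-1 cells. The BT-474 NRP-1 cells carry the pPTuner IRES2 plasmid with the cDNA of neuropilin-1 (NRP-1), a cell surface co-receptor, and came from transfected clones isolated and selected with Geneticin, while both kinds of cells were cultured in RPMI medium with serum. A library of cells with the empty plasmid was not analysed here, so that NRP-1, the plasmid, the selection and the passage through clones cannot be told apart. The libraries are named by the replicate numbers of their labels, which are 1 and 2 for the control cells and 2 and 3 for the NRP-1 cells. No source states that they came from separate cultures, so p-values measure the spread between these samples only, which may be technical. Expected counts, which are reads assigned to genes, summed to between 8243595 and 8448926 per library. The transcript of NRP1 yielded 7 and 8 reads in control cells, against 103 and 62 in NRP-1 cells (adjusted p = 0.044, edgeR). All 7 luminal markers, such as KRT8 and GATA3, had more than 3 reads in every library.

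Neighbouring epithelial cells are joined by 3 kinds of contact. Adherens junctions are built on cadherins and nectins, tight junctions on claudins, occludin and JAM proteins that seal the space between cells, and desmosomes on desmogleins and desmocollins that tie into keratin filaments. In epithelial to mesenchymal transition (EMT), transcription factors of the SNAI, ZEB and TWIST families repress junction genes. ESRP splicing factors and the GRHL and OVOL transcription factors are known to maintain the epithelial state. SNAI and ZEB proteins bind E-box sequences with zinc fingers.

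Because such an E-box is a property of the genes that is independent of their expression here, the 250 bases before each annotated start of transcription were searched in RefSeq sequence (GRCh38.p14). The letters searched were CACCTG and CAGGTG, which are reverse complements of each other, so that both strands were covered. Windows were given for 22 of the 39 genes, and CDH1, CDH3 and EPCAM were among those without one. In all, 37 windows were searched. Genes with several starts, such as ZEB1 and TJP1, gave several windows, and those of OCLN overlapped each other. An E-box was present in 13 of the 37 windows (35.1%), in 11 of the 22 genes, while 17.5% of all 35116 windows and 20.6% of all genes with a window held one. At least 4 E-boxes were found in 2 windows of these genes, one of CLDN7 and that of CRB3, compared with 0.122% of all windows. A match says only that these letters are present. The windows shown are these most E-box-rich ones, which belong to a tight junction gene that was lower in the NRP-1 libraries and to a polarity gene whose groups overlapped, followed by that of DSG2, a desmosomal cadherin, as an example with 2 E-boxes. DSP and JUP, which were higher in both NRP-1 libraries, and ZEB1 also had a window with 2. The windows are 5′ to 3′ on the strand of the gene, with E-boxes in capitals.

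CLDN7, chr17:7262479-7262728, minus strand: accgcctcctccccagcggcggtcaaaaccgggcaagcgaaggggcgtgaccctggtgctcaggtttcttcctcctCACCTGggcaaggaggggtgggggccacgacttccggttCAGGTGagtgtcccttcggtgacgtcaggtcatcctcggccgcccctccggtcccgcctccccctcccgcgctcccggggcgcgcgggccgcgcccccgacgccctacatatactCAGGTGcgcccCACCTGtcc

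CRB3, chr19:6464021-6464270, plus strand: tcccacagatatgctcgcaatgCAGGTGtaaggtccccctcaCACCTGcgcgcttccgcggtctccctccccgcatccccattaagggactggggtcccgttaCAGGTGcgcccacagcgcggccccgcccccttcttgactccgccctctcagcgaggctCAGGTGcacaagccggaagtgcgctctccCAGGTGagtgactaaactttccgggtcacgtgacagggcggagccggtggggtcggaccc

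DSG2, chr18:31497927-31498176, plus strand: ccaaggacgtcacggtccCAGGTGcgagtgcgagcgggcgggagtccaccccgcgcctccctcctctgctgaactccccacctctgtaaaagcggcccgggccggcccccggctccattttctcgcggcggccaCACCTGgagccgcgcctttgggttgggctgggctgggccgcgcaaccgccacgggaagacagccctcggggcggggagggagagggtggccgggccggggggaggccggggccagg

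CLDN7 has a second annotated start, whose window held 0 E-boxes, and 0 were found in the windows of CLDN3 and CLDN4. TJP1 had 1 E-box in the window of one start and 0 in those of its other starts.

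In control cells, transcripts of junction genes were abundant and those of EMT factors scarce. Levels between genes are compared as FPKM, fragments scaled by transcript length and by the reads mapped in a library. The highest control mean was that of CLDN4, a claudin of the tight junction seal, at 286 ± 8.48 FPKM (SD, n = 2). CLDN7 followed at 175 ± 19.4 FPKM and EPCAM, the epithelial cell adhesion molecule, at 165 ± 5.54 FPKM, and the control libraries of CLDN7 and EPCAM overlapped. CDH1, which encodes E-cadherin, lay at 137 ± 2.26 FPKM and JUP, the plakoglobin shared by desmosomes and adherens junctions, at 112 ± 2.09 FPKM. Of the 39 genes, 12 were at or above the 90th percentile of all genes with a read by control mean FPKM, and 23 reached 10 FPKM in every library.

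The EMT transcription factors lay at the opposite end. ZEB2 had 0 reads in both controls, 0 in NRP-1 replicate 2 and 1 in NRP-1 replicate 3. SNAI2 was covered by 1 and 0 reads in the controls and by 0 and 2 reads in NRP-1 cells. SNAI1 gave 9 and 1 reads in control cells compared with 2 and 5 in NRP-1 cells. In none of these 3 genes did the groups separate at this depth, and no fold is given.

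ZEB1, a zinc finger repressor of CDH1, yielded 10 and 12 reads in control cells, against 18 and 20 in NRP-1 cells. Both NRP-1 libraries were above both controls, at a control mean of 0.215 ± 0.0354 FPKM and an NRP-1 mean of 0.375 ± 0.0354 FPKM (SD, n = 2). The log2 fold change of 0.72 had a standard error of 0.41 and was not called (adjusted p = 0.342, edgeR). TWIST1, a basic helix-loop-helix factor, was covered by 21 and 25 reads in the controls and by 23 and 16 reads in NRP-1 cells, and the groups overlapped.

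The question of the comparison was whether transcripts of these genes differed between BT-474 NRP-1 and control cells. By edgeR's quasi-likelihood test, 0 of the 36 tested genes had an adjusted p under 0.05 and were thus called, where 1.09% of all 14298 tested genes did. The lowest adjusted p was 0.088, for CLDN7. DESeq2 called 1 of the 36 at the same threshold, again CLDN7, against 6.67% of all genes. An unadjusted p under 0.05 was reached by 4 genes that were higher (11.1%, compared with 10.8% of all genes) and by 5 that were lower (13.9%, compared with 12.1%). Both NRP-1 libraries lay above both controls in 8 genes (22.2%, against 27.9% of all genes) and below both in 11 (30.6%, against 28.3%), while the groups of the other 17 overlapped. These shares lie near those of all genes. All 36 log2 fold changes were between -0.74 and 0.76, with a median of 0.06 where that of all genes was 0.02, and the median absolute value was 0.30 where that of all genes was 0.27. In bulk RNA, fewer cells that express a gene and less RNA per cell cannot be told apart.

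**Figure D1:**
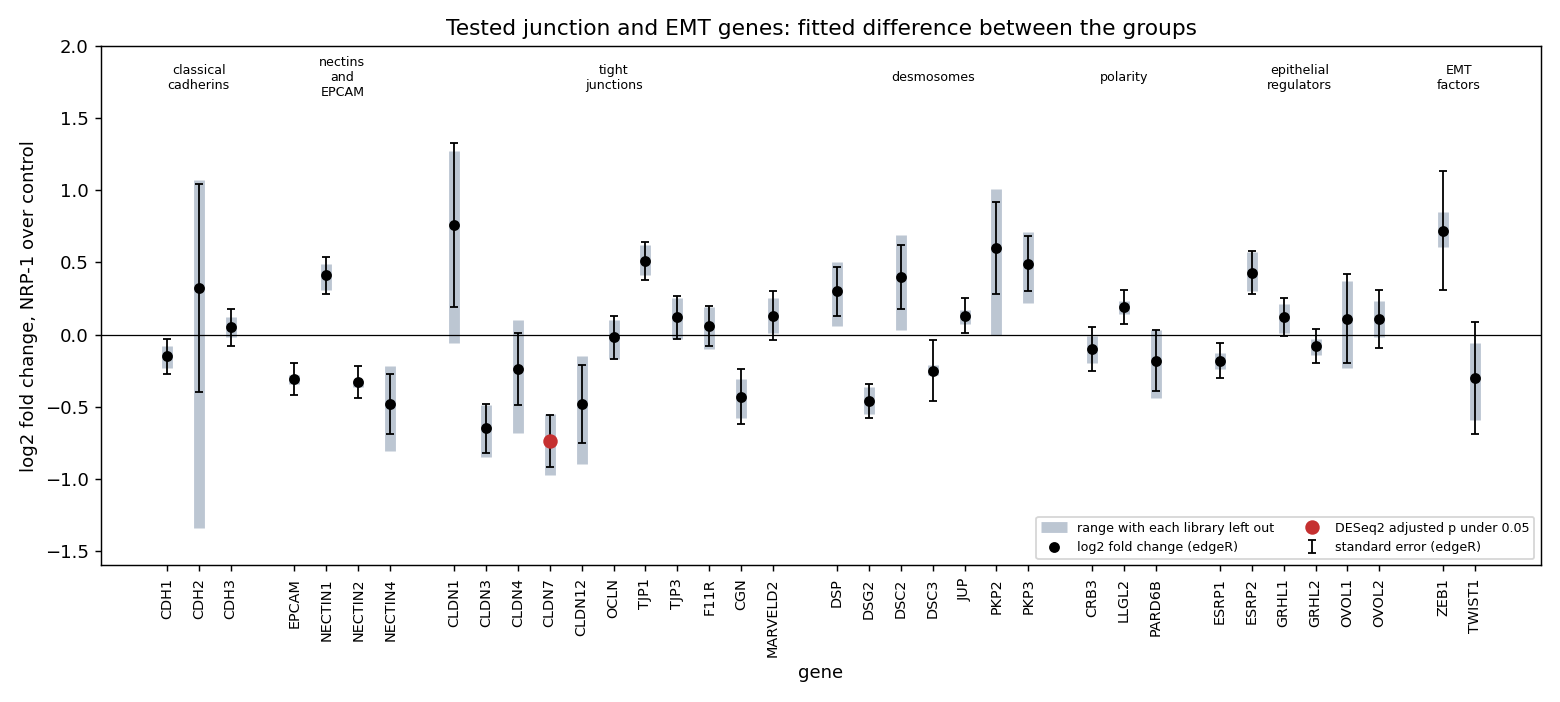
Log2 fold change of NRP-1 over control for the 36 tested genes by edgeR (points), with standard errors (thin bars) and the range when each library was left out in turn (grey bars). CLDN7, in red, is the one gene with a DESeq2 adjusted p under 0.05, and CDH2 has the widest range, from -1.34 to 1.07.

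Among the classical cadherins, CDH1 was by far the most abundant in every library. E-cadherin, which CDH1 on chromosome 16 encodes, forms the homophilic contacts of epithelial adherens junctions. It gave 5553 and 5464 reads in control cells compared with 5440 and 4929 in NRP-1 cells. The NRP-1 libraries were the lower ones, at a log2 difference of -0.15 with a standard error of 0.12, which was not called (adjusted p = 0.527, edgeR). CDH3, or P-cadherin, yielded 505 and 530 reads in control cells, against 585 and 535 in NRP-1 cells, and the control library with 530 exceeded 1 NRP-1 library once scaled for depth.

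CDH2, or N-cadherin, which mesenchymal and neural cells carry, was low in all 4 libraries and split the NRP-1 group. It had 26 and 23 reads in the control libraries, 10 in NRP-1 replicate 2 and 54 in NRP-1 replicate 3. One NRP-1 library was below both controls and the other above both. The ratio of CPM, which are counts scaled by the size of the library after TMM, in replicate 3 over replicate 2 was 5.39 (95% interval 2.72 to 11.9, exact and covering counting error only), and the log2 fold change was -1.34 without replicate 3 and 1.07 without replicate 2. CDH1 was at 134 and 120 FPKM in the same libraries.

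All 4 nectin and EPCAM genes had groups that did not overlap, 1 higher and 3 lower, where 27.9% of all genes were higher and 28.3% lower in this sense. Of 6 further genes of this class, 2 did not overlap. EPCAM, on chromosome 2, was covered by 2291 and 2420 reads in the controls and by 2010 and 1953 reads in NRP-1 cells (log2 fold change -0.31, standard error 0.11). NECTIN2 gave 1902 and 1941 reads in control cells compared with 1562 and 1619 in NRP-1 cells (log2 fold change -0.33, standard error 0.11). In these genes the replicates of each group lay close together and the groups apart. NECTIN1, which encodes another adherens junction protein of the immunoglobulin superfamily, yielded 570 and 613 reads in control cells, against 764 and 870 in NRP-1 cells, at a log2 fold change of 0.41 in the opposite direction. NECTIN4 was covered by 1327 and 1194 reads in the controls and by 1129 and 756 reads in NRP-1 cells, so that its NRP-1 replicates were farther apart than NRP-1 replicate 2 was from the controls. None of the 4 was called, with adjusted p-values from 0.147 to 0.240 by edgeR.

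The claudins differed among themselves. CLDN7, on chromosome 17, gave 2697 and 2359 reads in control cells compared with 1800 and 1350 in NRP-1 cells. Both NRP-1 libraries were lower than both controls, and the fitted level in NRP-1 cells was 0.598 of that in control cells. The log2 fold change of -0.74 (standard error 0.18) had an adjusted p of 0.088 by edgeR and 0.0128 by DESeq2, and it ranged from -0.97 to -0.55 when each library was left out. CLDN3, on chromosome 7, yielded 579 and 525 reads in control cells, against 410 and 321 in NRP-1 cells. This was again a separation of the groups, at a log2 fold change of -0.65 with a standard error of 0.17 (adjusted p = 0.099 by edgeR and 0.073 by DESeq2).

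CLDN4, the most abundant of these genes, had NRP-1 libraries on either side of the controls. It had 4249 and 4464 reads in the control libraries, 4843 in NRP-1 replicate 2 and 2843 in NRP-1 replicate 3. Replicate 2 was above both controls and replicate 3 below both, so the log2 fold change was -0.24 in all, -0.68 without replicate 2 and 0.10 without replicate 3. CLDN12 was covered by 347 and 292 reads in the controls and by 299 and 180 reads in NRP-1 cells, with most of the difference in replicate 3. CLDN1 was scarce in all, with 12 and 10 reads in the controls and 11 and 28 in NRP-1 cells. Of these claudins, CLDN3, CLDN7 and CLDN12 were lower in both NRP-1 libraries by CPM, and CLDN1 and CLDN4 overlapped between groups. For CLDN12 the groups barely separated, with 35.2 CPM in NRP-1 replicate 2 against 35.5 in control replicate 2. By FPKM they overlapped, at 9.73 and 9.58 in the same libraries.

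TJP1 lay on the other side of the controls from CLDN3 and CLDN7. It encodes ZO-1, a scaffold that ties claudins and occludin to actin, and gave 1012 and 1188 reads in control cells compared with 1572 and 1699 in NRP-1 cells. Both NRP-1 libraries were higher, at a log2 fold change of 0.51 with a standard error of 0.13 (adjusted p = 0.099, edgeR) and a range from 0.41 to 0.62 with each library left out. OCLN, or occludin, yielded 567 and 499 reads in control cells, against 594 and 498 in NRP-1 cells, which is the smallest difference of the 36 genes (log2 fold change -0.02, standard error 0.15). A partial copy of OCLN exists nearby on chromosome 5, so reads could have been divided between them and its value is uncertain. CGN, the adaptor cingulin, was covered by 210 and 194 reads in the controls and by 170 and 142 reads in NRP-1 cells, which did not overlap (adjusted p = 0.238, edgeR). F11R, which encodes the junctional adhesion molecule JAM-A, had 2763 and 2877 reads in the controls, 3355 in NRP-1 replicate 2 and 2761 in replicate 3. It, TJP3, which encodes ZO-3, and MARVELD2, or tricellulin, overlapped between groups, at log2 fold changes from 0.06 to 0.13.

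Desmosome genes were split between directions. DSG2, the desmoglein of simple epithelia, gave 1564 and 1388 reads in control cells compared with 1123 and 1119 in NRP-1 cells. The NRP-1 libraries lay together and were lower than both controls (log2 fold change -0.46, standard error 0.12, adjusted p = 0.110, edgeR). DSP encodes desmoplakin, which anchors keratin filaments, and yielded 6029 and 6499 reads in control cells, against 9205 and 6846 in NRP-1 cells. Both NRP-1 libraries were higher, yet after scaling replicate 3 lay close to the controls, and the log2 fold change without replicate 2 was 0.06.

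PKP2, an armadillo protein of the desmosomal plaque, showed the same difference between its NRP-1 libraries. It had 239 and 219 reads in the control libraries, 480 in NRP-1 replicate 2 and 241 in NRP-1 replicate 3. The log2 fold change was 0.60 in all, 0.00 without replicate 2 and 1.01 without replicate 3. DSC2, a desmocollin, was covered by 743 and 808 reads in the controls and by 1301 and 831 reads in NRP-1 cells, again with replicate 2 apart from the other 3 libraries. PKP3 was the reverse, with 484 and 524 reads in the controls but 610 and 868 in NRP-1 cells, where replicate 3 was the highest (log2 fold change 0.49, adjusted p = 0.201, edgeR). JUP gave 3135 and 3253 reads in control cells compared with 3735 and 3526 in NRP-1 cells, while DSC3, a desmocollin of low level here, had 91 and 97 in the controls and 84 and 81 with NRP-1. Thus DSG2 and DSC3 were lower in both NRP-1 libraries and DSP, JUP and PKP3 higher in both, where 27.9% of all genes were higher and 28.3% lower in this sense, and 0 of the 7 were called.

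The polarity genes set up the apical domain and its border. LLGL2, a basolateral polarity protein, yielded 1886 and 2037 reads in control cells, against 2317 and 2331 in NRP-1 cells. The groups did not overlap, at a log2 difference of 0.19 ± 0.12 (standard error), which was not called (adjusted p = 0.391, edgeR). CRB3, an apical transmembrane protein, was covered by 283 and 309 reads in the controls and by 306 and 270 reads in NRP-1 cells. PARD6B, a subunit of the PAR complex, gave 230 and 216 reads in control cells compared with 237 and 173 in NRP-1 cells. Both of these overlapped between groups.

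Of the epithelial regulators, ESRP2 differed most. It encodes a splicing factor and yielded 991 and 1206 reads in control cells, against 1642 and 1437 in NRP-1 cells. Both NRP-1 libraries were higher (log2 fold change 0.43, standard error 0.15, adjusted p = 0.164, edgeR). Its paralog ESRP1 was covered by 2862 and 3123 reads in the controls and by 2809 and 2691 reads in NRP-1 cells, and lay slightly lower in both (log2 fold change -0.18). The paralogs thus lay on opposite sides of the controls. GRHL2, a transcription factor of epithelial genes that include CDH1, gave 1495 and 1588 reads in control cells compared with 1452 and 1584 in NRP-1 cells. GRHL1 had 569 and 537 reads in the controls, 664 in NRP-1 replicate 2 and 585 in replicate 3. GRHL1, GRHL2, OVOL1 and OVOL2 overlapped between groups, at log2 fold changes from -0.08 to 0.12, and OVOL1 had between 44 and 67 reads in a library.

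The NRP-1 libraries differed from each other more often than the control libraries did. A difference beyond counting error, meaning that the exact 95% interval of the ratio of CPM excluded 1, was found between the control libraries for 10 of the 36 genes (27.8%, against 19.5% of all genes). Between the NRP-1 libraries it was found for 23 genes (63.9%, against 48.9% of all genes). Among these 23, replicate 3 was the lower library in 15 and the higher in 8. Such an interval narrows as reads increase, and many of the junction genes were abundant. The shares of all genes were not matched for read number. Whether the junction genes varied more between libraries than other genes with as many reads was therefore not tested. In the controls the ratio of replicate 2 over replicate 1 was 1.04 for CLDN4, 0.905 for PKP2, 1.07 for DSC2 and 0.831 (interval 0.709 to 0.974) for CLDN12. It also departed from 1 for CLDN7 (0.864, interval 0.817 to 0.913) and DSG2 (0.877, 0.815 to 0.943). For TJP1 it was 1.159 (1.065 to 1.262) and for ESRP2 1.202 (1.104 to 1.309). The control intervals of CLDN3, EPCAM, NECTIN1 and NECTIN2 included 1. In the NRP-1 cells the ratio of replicate 3 over replicate 2 was 0.586 (interval 0.559 to 0.614) for CLDN4, 0.501 (0.428 to 0.587) for PKP2, 0.638 (0.584 to 0.696) for DSC2 and 0.601 (0.497 to 0.726) for CLDN12. The intervals of CLDN12 in the groups thus overlapped. By class, the NRP-1 libraries differed in 9 of 11 tight junction genes, 5 of 7 desmosome genes, 4 of 6 epithelial regulators and 2 of 3 cadherins. They differed in 2 of 4 nectin and EPCAM genes, 1 of 3 polarity genes and 0 of 2 tested EMT factors. The controls differed in 4, 2, 2, 0, 1, 1 and 0 genes of these classes, in the same order.

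**Figure D2:**
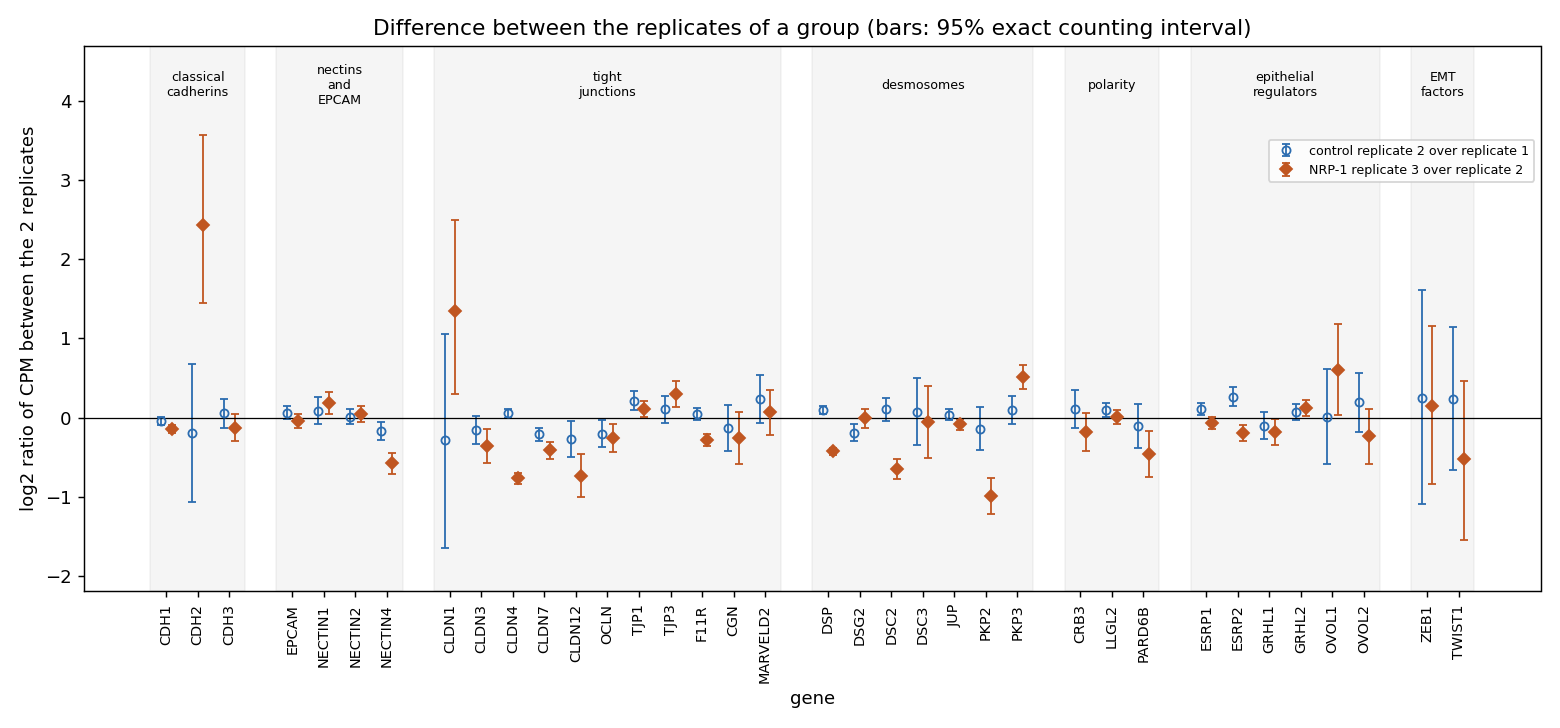
Log2 ratio of CPM between the 2 libraries of each group for the 36 tested genes, control in blue and NRP-1 in orange, with exact 95% intervals for counting error. CDH2, NECTIN4, CLDN4, CLDN7, F11R, DSP, DSC2, PKP2, PKP3 and ESRP2 have NRP-1 intervals that exclude 0 and do not overlap the control intervals.

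When either NRP-1 library was left out, the spread rested on the control libraries alone and many more genes were called. Without replicate 2, 15 of these genes and 36.8% of all genes had an adjusted p under 0.05, and without replicate 3 the numbers were 11 and 28.2%. The fits share the control libraries, and 8 of the 36 genes (22.2%) were called both times, against 18% of the 14589 genes tested both times. They were CLDN3, CLDN7, DSG2, EPCAM and NECTIN2, which were lower, and NECTIN1, TJP1 and ESRP2, which were higher. Without either control library, 0 were called.

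Beyond the 39 genes, 103 further genes of the same classes were listed, and 75 of them were tested. Of the 75, 0 were called by edgeR and 5 by DESeq2, all 5 higher. The share called by DESeq2 lies near its 6.67% of all genes. At an unadjusted p under 0.05 (edgeR) 12 were higher (16%, against 10.8% of all genes) and 3 lower (4%, against 12.1%). VCL, or vinculin, which links cadherin complexes to actin, was covered by 703 and 727 reads in the controls and by 1086 and 1108 reads in NRP-1 cells (DESeq2 adjusted p = 0.0459). Vinculin is a cytoplasmic partner of junctions, as is ZO-1, and its NRP-1 replicates lay close to each other.

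Another 3 of the genes called by DESeq2 belong to the EMT class of this wider list. VIM encodes vimentin, the intermediate filament protein of mesenchymal cells, and gave 69 and 48 reads in control cells compared with 371 and 147 in NRP-1 cells (DESeq2 adjusted p = 0.000334, edgeR adjusted p = 0.082). S100A4, a calcium-binding protein, yielded 25 and 25 reads in control cells, against 78 and 66 in NRP-1 cells (DESeq2 adjusted p = 0.0446). TCF3, which encodes the E-box binding factor E2A, was covered by 1357 and 1566 reads in the controls and by 2042 and 2939 reads in NRP-1 cells (DESeq2 adjusted p = 0.0326). Of 6 fibroblast markers, 1 had more than 3 reads in every library, COL1A1 with 1357 to 1740 reads. DCN and PDGFRB had 0 reads in every library, and the summed FPKM of the fibroblast list was between 35.0 and 35.3 in the control and between 27.0 and 30.1 in the NRP-1 libraries. The summed FPKM of the luminal list was 2989 to 3087 in control and 3384 to 3808 in NRP-1 cells. KRT8, KRT18, KRT19, FOXA1 and GATA3 were higher in both NRP-1 libraries. GATA3 had 184 and 186 reads in the controls but 688 and 289 with NRP-1 (adjusted p = 0.126 by edgeR and 0.0101 by DESeq2). ESR1 overlapped between groups, with 395 and 437 reads in the controls, 273 in NRP-1 replicate 2 and 735 in replicate 3. MUC1 of the same list was lower, with 1577 and 1666 reads in the controls but 732 and 363 with NRP-1 (adjusted p = 0.068 by edgeR and 1.09e-05 by DESeq2). The sums were 4.39 to 4.94 and 2.86 to 5.02 for 6 basal markers. KRT14 had 0 reads and KRT5 at most 1, while TP63, MYLK and OXTR had more than 3 reads in every library. For 5 endothelial markers the sums were 0.86 to 1.24 and 1.66 to 2.1, with TEK at 0 reads. PECAM1 and VWF had more than 3 reads in every library. PECAM1 overlapped between groups, and VWF had 9 and 20 reads in the controls but 47 and 49 with NRP-1 (adjusted p = 0.0998, edgeR). For 6 immune markers the sums were 60.6 to 68.4 and 48.9 to 51.1, with CD3E and CD14 at 0. Of the immune list, CD68 fell by 1.67 on the log2 scale (edgeR adjusted p = 0.0423), with 320 and 281 reads in the controls but 107 and 89 with NRP-1, and LYZ had a log2 difference of -0.08. The part of such differences in the results was not tested. In the same libraries ZEB1, ZEB2, SNAI1, SNAI2 and TWIST1 had 0 to 25 reads each and TCF3 had 1357 to 2939. For ZEB1 and TCF3 both NRP-1 libraries were above both controls, and the log2 fold change of CDH1 was -0.15. Whether the level of VIM is tied to any of these genes was not tested.

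Among the genes with the highest control FPKM of their class in this list were CTNNA1, LSR, PERP, SCRIB and SPINT2. CTNNA1 encodes α-catenin and gave 3407 and 3426 reads in control cells compared with 4323 and 3681 in NRP-1 cells. SPINT2, an inhibitor of the membrane protease matriptase, was the most abundant of them and yielded 6904 and 6965 reads in control cells, against 6170 and 5546 in NRP-1 cells. PERP, a desmosomal membrane protein, was covered by 2067 and 1950 reads in the controls and by 1760 and 1671 reads in NRP-1 cells. Their groups did not overlap, and those of LSR and SCRIB did. Not one of the 5 was called by edgeR or DESeq2.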

How the data were processed

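The RNA of control and NRP-1 overexpressing BT-474 cells was sequenced in 2 libraries per group. The authors deposited, for each library and gene, an expected count, estimated from the mapped reads and not normalized, and an FPKM value, normalized for length and mapped reads. Per the labels and the paper's methods, HISAT2 2.0.1 and Bowtie2 2.2.5 mapped the reads, and RSEM, bcl2fastq 2.16, GRCh38 and hg19 are named without a role, so that coordinates are given for RefSeq sequence only. Use of strand in counting is not given in the sources used here. A deposited table of the authors' comparison (group means, log2 ratios and a probability) was not used.

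Expected counts were rounded, filtered by filterByExpr, scaled by TMM and compared by glmQLFTest with group as the only term (edgeR 4.0.16, R 4.3.3), with Benjamini-Hochberg adjustment over 14298 genes. The standard error was the absolute log2 fold change divided by the square root of F. The alternatives were DESeq2 1.42.0, limma 3.58.1 at a mean FPKM of at least 0.5 with a pseudocount of 1 or 0.1 before the log2, no filter, unadjusted library sizes and the omission of each library. An exact permutation test of 2 against 2 cannot go below p = 0.33. Scripts were checked on simulated data (Python 3.11.15, scipy 1.17.1).

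The members and lists were chosen with earlier results of these data known. All 39 genes are named, NRP1 as a check, and of the wider list the genes called by edgeR or DESeq2 and the one of highest FPKM in each class. Markers are named beside them, GATA3, FOXA1, ESR1, MUC1, CD68, LYZ, TP63, MYLK, OXTR, PECAM1 and VWF after their values were seen. Some genes that this rule names are not reported here. Intervals cover counting error only.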

Additional observations from a re-analysis of the deposited data

How the results depend on the processing

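With DESeq2 the number of the 36 tested genes with an adjusted p under 0.05 was 1 in place of 0, and of the wider list 5 in place of 0; the cause was not tested. With each library left out in turn these numbers ranged from 0 to 15 and from 0 to 26, and the median log2 fold change from -0.027 to 0.073. A group left with 1 library was assumed to vary like the other. Of 214 comparisons of a gene's value under the other settings, 208 stayed on the same side of 0 and of the threshold, 1 passed it (CLDN7 by DESeq2) and 5 turned their direction, which were CDH2 (-0.02 by limma on log2(FPKM + 0.1)) and OCLN (0.01 with library sizes without TMM, 0.01 by limma on log2(FPKM + 1) with and without a filter, and 0.02 by limma on log2(FPKM + 0.1)). With a library left out, 10 genes turned their direction at least once, with log2 fold changes that ranged from -1.34 to 1.07 for CDH2, from -0.02 to 0.12 for CDH3, from -0.06 to 1.27 for CLDN1, from -0.68 to 0.10 for CLDN4, from -0.10 to 0.19 for F11R, from -0.17 to 0.10 for OCLN, from -0.23 to 0.37 for OVOL1, from -0.02 to 0.23 for OVOL2, from -0.44 to 0.03 for PARD6B and from -0.03 to 0.25 for TJP3. Over all genes, the calls at this threshold numbered 156 by edgeR, 954 by DESeq2, 0 by edgeR without a filter, and 7, 3 and 0 by limma with a pseudocount of 1, of 0.1 and of 1 without a filter. Library sizes without TMM moved the median of all genes from 0.02 to 0.05. The number of tested genes whose groups did not overlap was 19 by CPM, 21 with library sizes without TMM and 21 by FPKM. By FPKM, CLDN12 overlapped, while MARVELD2, DSC2 and GRHL1 were higher in both NRP-1 libraries. At a few reads per library, as for ZEB1, ZEB2, SNAI1, SNAI2, CDH2 and CLDN1, the depth limits what could be detected. No paired analysis was possible because the groups share only 1 replicate number.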
